A study of Homo sapiens with 24 samples.

Results

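The genes described here encode mTOR, a serine/threonine kinase, the proteins of its 2 complexes, and the machinery that reports amino acids, growth factors and energy to them. A list of 49 such genes was matched by Ensembl identifier to the rows of 4 count tables, and all 49 were found among the 61860 identifiers. They were divided into 29 activators, 14 inhibitors and 6 direct or indirect targets of mTOR. The activators include RICTOR and MAPKAP1, which encode subunits of mTOR complex 2 and not of complex 1.

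RNA-seq was performed on OE33, an established human esophageal adenocarcinoma cell line, in 4 experiments with a treated and a control group of 3 libraries each, or 24 libraries in all. In the diet experiment, OE33 cells were grown as subcutaneous xenografts in male BALB/c-nu nude mice that were bought at 4 weeks of age. Some mice were fed a diet high in fat (HFD) and others a normal diet (ND), for 8 weeks before injection and for the 21 days of tumor growth. The other experiments used cultured OE33 cells transfected with plasmids. HA-tagged TRIM15, an E3 ubiquitin ligase, was set against empty vector (EV) at 48 h. Short hairpin RNA against the zinc finger transcription factor YY2 (shYY2) or against the mitochondrial protein FOXRED1 (shFOXRED1) was set against its own shControl at 72 h. The shFOXRED1 experiment bears on whether FOXRED1 acts on the mTOR and c-MYC pathway. For that question the paper also reports protein: after FOXRED1 knockdown, phosphorylated mTOR and c-MYC rose and total mTOR did not change. Only RNA was measured in the libraries described here.

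Several features limit these groups as models. The HFD mice were those whose body weight exceeded a cutoff set from the ND mice. Nude mice lack mature T cells but keep other immune cells and their own stroma. Transfection is transient and can leave some cells untouched, and the hairpin that each knockdown library received is not given in the sources used here. In bulk RNA, fewer expressing cells and less RNA per cell cannot be told apart.

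Library totals ranged from 14299807 to 45994561 counts. After transfection with HA-TRIM15, counts of TRIM15 reached 111, 130 and 181, against 0 in each EV library. It had 14, 12 and 24 counts in HFD xenografts against 1, 0 and 0 in ND. YY2 had 11, 12 and 11 counts after shYY2 against 43, 40 and 46 in its control, and FOXRED1 had 183, 207 and 129 counts after shFOXRED1 against 322, 259 and 254. FOXRED1 was also lower in shYY2 (log2 fold change -0.89, adjusted p = 3.31e-09). Summed epithelial marker genes stood between 11061 and 16930 CPM (counts scaled to library size) in every library, and endothelial, adipocyte and lymphocyte sums stayed at or below 1.38 CPM. All of these markers are human genes, and the handling of mouse reads is not given. Low sums in the xenografts therefore do not show that mouse host cells were absent. The summed fibroblast list was 42.5 to 44.4 CPM in shYY2 against 10.9 to 12.2 in its control, 38.5 to 41.8 in shFOXRED1 against 24.3 to 25.5, and 23.9 to 27.3 in HFD against 30.6 to 33.8 in ND. The macrophage list was 9.07 to 10.1 CPM in HFD against 11.4 to 12.4, 6.57 to 7.67 in HA-TRIM15 against 5.32 to 5.43, and 6.03 to 7.32 in shYY2 against 10.7 to 12.2. In each of these comparisons 1 of the 8 fibroblast and 1 of the 7 macrophage genes passed the filter on low counts. The part of these markers in the results was not tested.

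mTOR works in a growth-promoting complex with Raptor (mTORC1) and in a complex with Rictor (mTORC2) that phosphorylates AKT. Amino acids bring mTORC1 to the lysosome through the Rag GTPases, which the Ragulator scaffold anchors there and the GATOR complexes control. Growth factors act through PI3K and AKT on the TSC complex, which holds back the GTPase Rheb, the direct activator of mTORC1. Active mTORC1 raises protein synthesis through S6 kinase and the 4E-BP proteins, and it suppresses autophagy through ULK1. Much of this control works on protein, by phosphorylation and localization, whereas the measurements here are of RNA.

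Members moved in both directions in every experiment, in the activators as in the inhibitors. A member was called when its Benjamini-Hochberg adjusted p in edgeR's quasi-likelihood test was under 0.05 over all genes tested, with 3 libraries in every group. Values in parentheses after the name of a gene or an experiment are log2 fold changes of treated over control. In HFD xenografts 14 of 48 tested members were higher and 19 lower than in ND, that is 68.8% called where 49.5% of all 17012 genes tested were called. In HA-TRIM15 cells 9 of 47 were higher and 11 lower than in EV, or 42.6% beside 22.1% of all genes. With the GC correction described below, which was added after seeing the data, this became 25.5% beside 20.4%. After shYY2, 20 of 48 were higher and 19 lower, or 81.3% beside a background of 75%. After shFOXRED1, 11 of 49 were higher and 8 lower, or 38.8% beside a background of 36.6%. With the replicate number as a block the share there was 55.1% beside 43.2% of all genes. The median log2 fold change of the tested members was -0.027, -0.065, 0.0042 and 0.020 in the same order, and the median of all genes lay between -0.012 and 0.012.

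Neither side of the pathway moved as a block. Of the 29 activators, 9 were higher and 12 lower in HFD, 6 and 8 in HA-TRIM15, 11 and 12 in shYY2, and 6 and 4 in shFOXRED1. Of the 14 inhibitors, 2 were higher and 5 lower in HFD, 2 and 2 in HA-TRIM15, 7 and 4 in shYY2, and 4 and 1 in shFOXRED1. Over all genes tested, 25.6% were higher and 23.9% lower in HFD, 12.5% and 9.53% in HA-TRIM15, 36.8% and 38.1% in shYY2, and 16.8% and 19.7% in shFOXRED1. The libraries of the treated and the control group did not overlap for 32 members in HFD, 27 in HA-TRIM15, 39 in shYY2 and 24 in shFOXRED1. Over all genes the groups did not overlap for 56.2%, 37.7%, 76.3% and 46.7%. PRKAA2 was too low to be tested outside the shFOXRED1 experiment, and CASTOR1 was too low in HA-TRIM15. NPRL2, RRAGC and PRKAA2 were not called in any experiment.

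**Figure D1:**
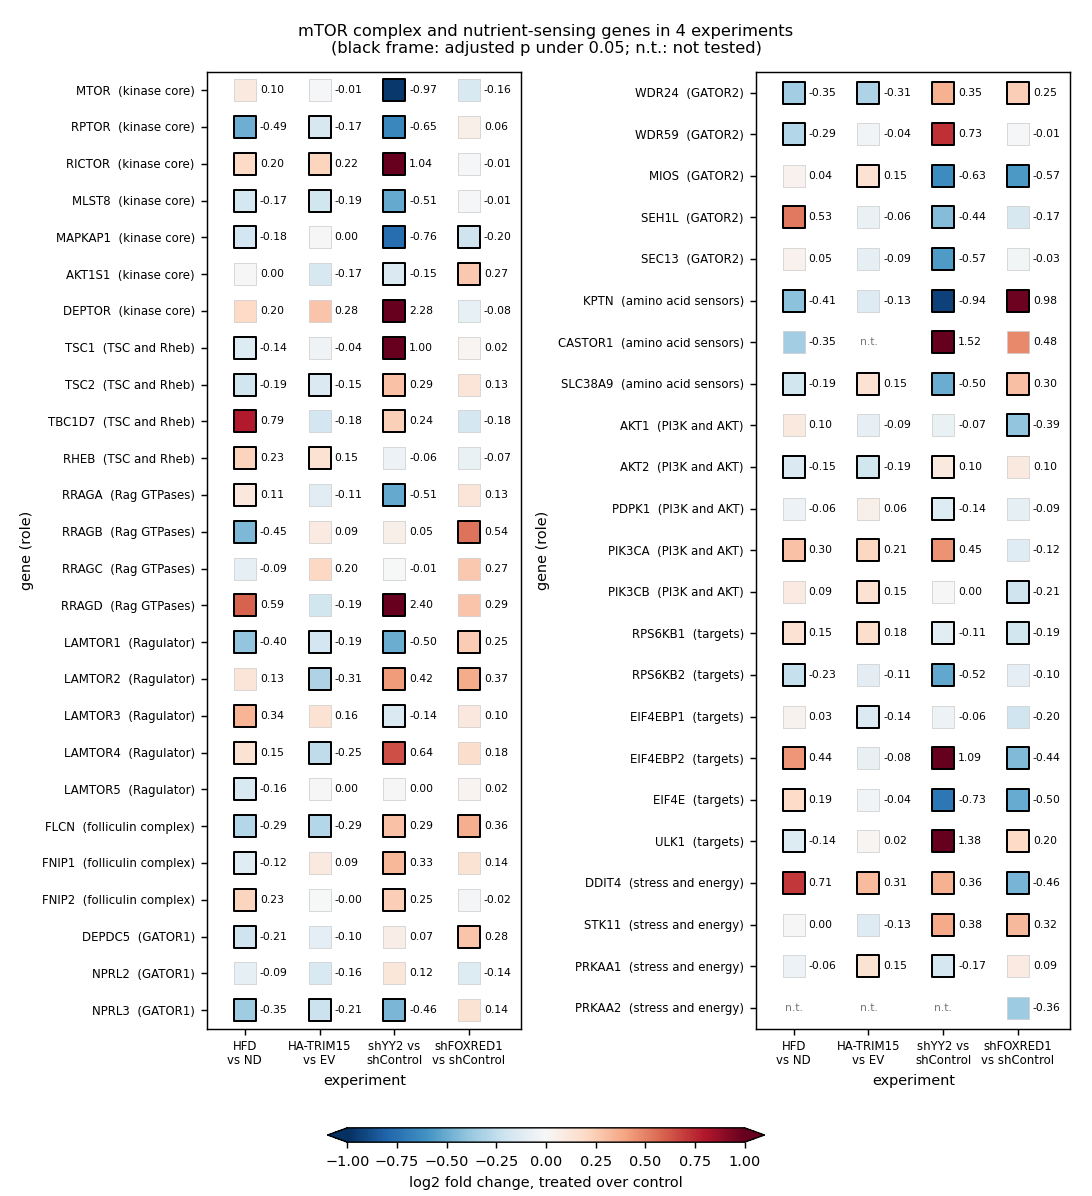
Log2 fold change of each of the 49 members (rows, ordered by role) in the 4 experiments (columns), as a color from blue (lower) to red (higher) beside its value, with a black frame around the called changes. Every column holds higher and lower members, the shYY2 column has the widest range, from -0.97 to 2.40, and the HA-TRIM15 column has the narrowest, from -0.31 to 0.31.

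The calls differed in how far they rested on single libraries. With each library left out in turn, 23 of the 33 called members kept their call every time in HFD, 8 of 20 in HA-TRIM15, 35 of 39 in shYY2 and 8 of 19 in shFOXRED1. In HA-TRIM15 the number of lower members went from 11 to 17 without HA-TRIM15 library 1, to 5 without HA-TRIM15 library 2 or EV library 1, and to 6 without EV library 3. The number of higher members there went from 9 to 5 without EV library 1 or 3. The counts over all genes moved in the same way: lower genes went from 1501 to 2506 without HA-TRIM15 library 1, to 800 without HA-TRIM15 library 2, to 855 without EV library 1 and to 787 without EV library 3, and higher genes from 1973 to 1321 and 1247 without EV library 1 and 3. In shFOXRED1 the higher members went from 11 to 6 without shFOXRED1 library 2 or shControl library 3, and over all genes from 2650 to 2080 and 2084. The calls lost without at least 1 library were those of DEPDC5, EIF4E, FNIP1, LAMTOR5, MLST8, RRAGA, RRAGD, SLC38A9, TSC1 and ULK1 in HFD. In HA-TRIM15 they were EIF4EBP1, LAMTOR1, LAMTOR4, MIOS, MLST8, NPRL3, PIK3CB, PRKAA1, RHEB, RPTOR, SLC38A9 and WDR24. In shYY2 they were AKT2, LAMTOR3, RPS6KB1 and TBC1D7, and in shFOXRED1 AKT1S1, DEPDC5, LAMTOR1, LAMTOR2, MAPKAP1, PIK3CB, RPS6KB1, SLC38A9, STK11, ULK1 and WDR24. The highest adjusted p that any of these reached was 0.1897 in HFD, 0.187 in HA-TRIM15, 0.169 in shYY2 and 0.164 in shFOXRED1. No called member changed its sign without a library. In the shFOXRED1 experiment the same-numbered libraries correlated at r of 0.18, 0.12 and 0.34 in their deviations from the group means. Libraries of unlike number reached 0.18 for numbers 1 and 2 and -0.15 for number 3, so only number 3 stood apart as a pair. With the number as a block, used as an alternative, 16 members were higher and 11 lower there. Over all genes 20.1% were then higher and 23.1% lower. The members that gained a call were MTOR, TSC2, RRAGC and EIF4EBP1, given with those genes, and LAMTOR4 (adjusted p = 0.0110), FNIP1 (adjusted p = 0.0323), NPRL3 (adjusted p = 0.0266) and SEH1L (adjusted p = 0.0249).

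The GC content of the transcripts moved with these changes. Across tested members, Spearman's rho between GC content and log2 fold change was -0.47 in HFD (48 members), -0.63 in HA-TRIM15 (47), -0.0012 in shYY2 (48) and 0.30 in shFOXRED1 (49). Over all genes with a GC value it was -0.13, -0.37, 0.15 and 0.26. The genes in each correlation were measured in the same 6 libraries, so these are descriptions. In HA-TRIM15 the higher members had a median GC content of 38.2% and the lower members 59.8%. In HFD these medians were 41.5% and 55.8%, and in shFOXRED1 they ran the other way, at 55.8% and 43.0%.

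Each library was therefore also fitted with its own smooth trend of GC content removed, an alternative chosen after seeing the data. In HA-TRIM15, 7 of the 20 calls stayed. The 13 that were lost were those of RPTOR, MLST8, TSC2, LAMTOR4, NPRL3, WDR24, MIOS, SLC38A9, PIK3CA, PIK3CB, RPS6KB1, EIF4EBP1 and PRKAA1, while TBC1D7, SEH1L, EIF4EBP2, EIF4E and ULK1 gained a call, so that 12 were called. In HFD 29 of 33 calls stayed, without RICTOR, DEPDC5, RPS6KB1 and EIF4E, and MTOR, AKT1 and PRKAA1 were gained (32 called, 66.7% beside 51.4% of all genes). In shYY2 34 of 39 stayed, without LAMTOR3, WDR24, AKT2, RPS6KB1 and PRKAA1, and AKT1, PIK3CB and EIF4EBP1 were gained (37 called, 77.1% beside 75.4%). In shFOXRED1, where the replicate number entered the same fit, 16 of 19 stayed, without WDR24, RPS6KB1 and ULK1. There MTOR, RICTOR, MLST8, RRAGC, LAMTOR3, FNIP1, RPS6KB2, EIF4EBP1 and PRKAA1 were called in addition (25 called, 51% beside 43.9%). No call that stayed changed direction. The corrected values of RPTOR in HA-TRIM15 and of RICTOR in HFD and HA-TRIM15 are given with those genes.

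**Figure D2:**
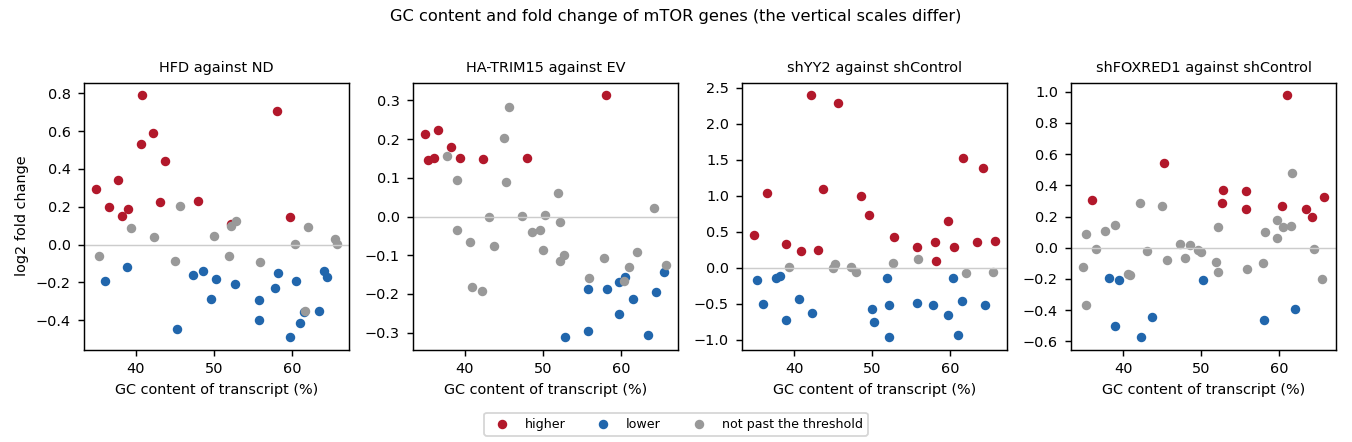
GC content of each member's longest transcript (horizontal axis, percent) against its log2 fold change (vertical axis, a separate scale in each panel) in the 4 experiments, colored by call. In HA-TRIM15 the higher members lie mostly at low GC content and the lower members at high GC content, with DDIT4 (log2 fold change 0.31) an exception among the higher ones, whereas in shYY2 both calls spread across the range.

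RICTOR, the defining subunit of mTORC2, rose and RPTOR, that of mTORC1, fell in HFD, HA-TRIM15 and shYY2, although the calls of RICTOR in HFD and of RPTOR in HA-TRIM15 were lost with the GC correction. In the kinase core, which has 7 members, 1 was higher and 3 were lower in HFD, 1 and 2 in HA-TRIM15, 2 and 5 in shYY2, and 1 and 1 in shFOXRED1. MTOR lies at chr1:11106535-11262507, RPTOR at chr17:80544819-80966371 and RICTOR at chr5:38937919-39074408 in GRCh38.

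MTOR, the kinase itself, was at 78.6, 69.8 and 70.4 CPM in HFD and 66.9, 70.3 and 66.4 in ND. These groups overlapped, and the log2 fold change 0.099, SE 0.047, adjusted p = 0.0950 did not pass. After correction for GC content the log2 fold change of MTOR in HFD was 0.14 with an adjusted p of 0.0121. MTOR was at 91.3, 97.6 and 98.9 CPM in HA-TRIM15 and 97.5, 96.7 and 96.1 in EV (log2 fold change -0.014, SE 0.039, adjusted p = 0.851). The HA-TRIM15 and EV libraries overlapped, and no difference passed the test. After shYY2, MTOR was at 49.5, 49.9 and 48.96 CPM against 98.2, 98.6 and 93.7 in the control. Every shYY2 library was below every control library, and MTOR was 1.96-fold lower (log2 fold change -0.97, SE 0.037, adjusted p = 1.38e-12). After shFOXRED1 it was at 79.9, 86.4 and 82.7 CPM against 93.4, 89.5 and 94.9 (log2 fold change -0.16, SE 0.061, adjusted p = 0.0508). These groups did not overlap, and the call turned on the replicate number, with an adjusted p of 0.0138 when it was a block.

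RPTOR, which encodes the substrate-binding subunit Raptor, was at 44.8, 43.2 and 45.6 CPM in HFD and 58.7, 66.8 and 61.9 in ND. All HFD libraries were lower (log2 fold change -0.49, SE 0.050, adjusted p = 5.33e-07). In HA-TRIM15 cells RPTOR was at 53.9, 47.1 and 48.2 CPM against 55.9, 53.2 and 59.3 (log2 fold change -0.17, SE 0.056, adjusted p = 0.0424). The groups overlapped, and the difference lost its call without HA-TRIM15 library 2 or 3 or EV library 1 or 3 (adjusted p up to 0.187), and after correction for GC content (log2 fold change -0.071, adjusted p = 0.273). After shYY2, RPTOR was at 31.3, 30.2 and 32.4 CPM against 46.9, 52.1 and 48.7 (log2 fold change -0.65, SE 0.052, adjusted p = 1.15e-08), with no overlap. In shFOXRED1 cells it was at 72.9, 79.8 and 66.6 CPM against 72.5, 71.9 and 66.2, and the groups overlapped (log2 fold change 0.059, SE 0.073, adjusted p = 0.561).

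RICTOR, the scaffold of mTORC2, was at 133, 133 and 131 CPM in HFD and 119, 117 and 109.9 in ND (log2 fold change 0.20, SE 0.037, adjusted p = 0.000362). The HFD libraries were all higher, and with the GC correction the log2 fold change was 0.083 (adjusted p = 0.0634). In HA-TRIM15 it was at 105, 121 and 115 CPM against 98.3, 94.7 and 98.6 (log2 fold change 0.22, SE 0.047, adjusted p = 0.00350). All 3 HA-TRIM15 libraries were higher than EV, and the call stayed after the GC correction (log2 fold change 0.12, adjusted p = 0.0195). After shYY2, RICTOR was at 235, 238 and 247 CPM against 111, 117 and 122, a 2.05-fold rise (log2 fold change 1.04, SE 0.035, adjusted p = 3.86e-13). In shFOXRED1 it was at 111, 119 and 144 CPM against 121, 116 and 139 (log2 fold change -0.0082, SE 0.086, adjusted p = 0.953). There the third library of each group was the highest of its group, and the groups overlapped. With both the replicate block and the GC correction, RICTOR after shFOXRED1 had a log2 fold change of 0.10 and an adjusted p of 0.0424.

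The log2 ratio of RICTOR to RPTOR counts within a library, computed after these values were seen, was 1.57, 1.62 and 1.53 in HFD and 1.02, 0.80 and 0.83 in ND. In HA-TRIM15 it was 0.96, 1.36 and 1.26 against 0.81, 0.83 and 0.73 in EV. After shYY2 it was 2.91, 2.98 and 2.93 against 1.25, 1.17 and 1.32. The treated groups stood above their controls without overlap in these 3 experiments, by 0.69, 0.40 and 1.69 in the mean. The counts in this ratio were not corrected for GC content. With that correction the calls of RICTOR in HFD and of RPTOR in HA-TRIM15 were lost, and the change of RICTOR in HA-TRIM15 was smaller. After shFOXRED1 the ratio was 0.61, 0.58 and 1.11 against 0.73, 0.69 and 1.07, which overlap. The smallest p that an exact permutation test of 3 against 3 libraries can give is 0.1, so no test is given for the ratio.

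**Figure D3:**
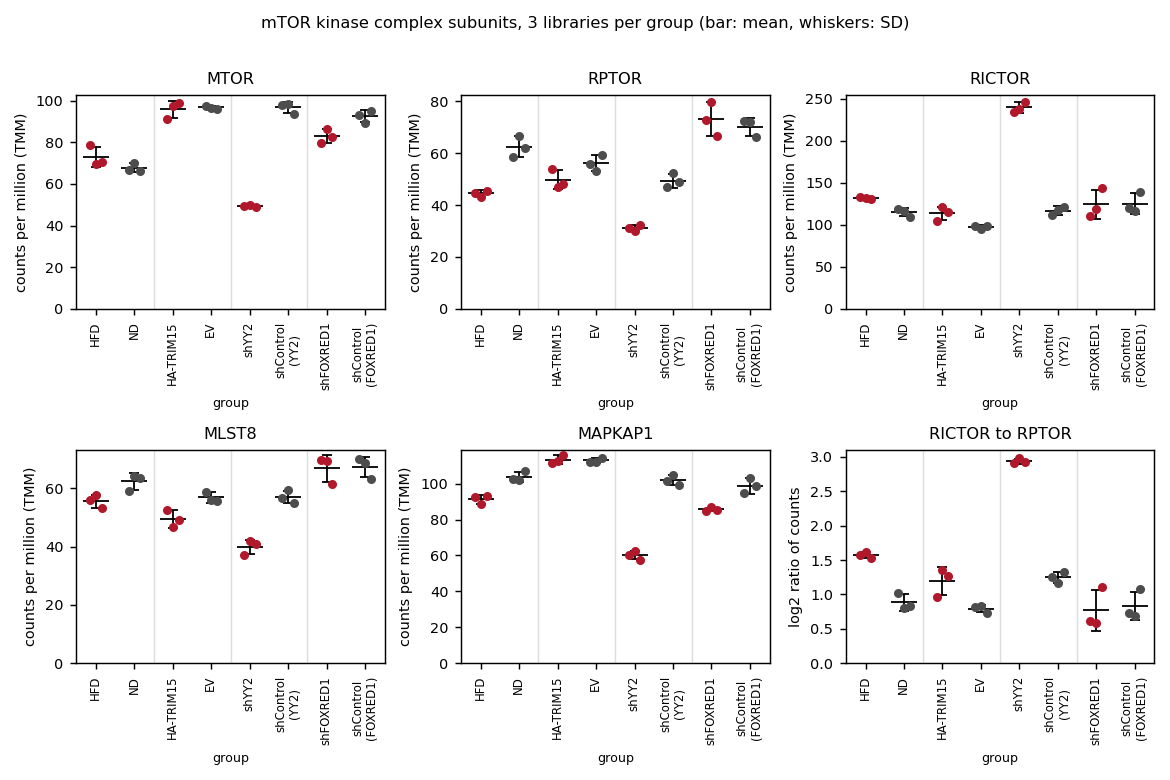
CPM of MTOR, RPTOR, RICTOR, MLST8 and MAPKAP1 and, in the last panel, the log2 ratio of RICTOR to RPTOR counts in each of the 24 libraries (points, treated groups in red), with the group mean (bar) and SD (whiskers). No panel is corrected for GC content. RICTOR is above its control without overlap in HFD, HA-TRIM15 and shYY2, RPTOR is below it without overlap in HFD and shYY2, and the change of MTOR in shYY2 is the one that passed the test.

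The other core subunits also fell after shYY2, except for DEPTOR. MLST8, the subunit common to both complexes, was at 52.7, 46.7 and 49.1 CPM in HA-TRIM15 and 58.9, 56.1 and 55.7 in EV (log2 fold change -0.19, SE 0.049, adjusted p = 0.0112). Its groups did not overlap, but the call was lost without HA-TRIM15 library 2 or EV library 1 (adjusted p up to 0.0636) and with the GC correction (adjusted p = 0.311). MLST8 also fell in HFD (log2 fold change -0.17) and in shYY2 (-0.51). MAPKAP1, which encodes the mTORC2 subunit SIN1, fell in HFD (-0.18), shYY2 (-0.76) and shFOXRED1 (-0.20). AKT1S1, the Raptor-bound inhibitor PRAS40, fell in shYY2 (-0.15) and rose in shFOXRED1 (0.27).

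DEPTOR, a small inhibitory partner of mTOR, was at 3.83, 3.72 and 3.68 CPM after shYY2 and 1.098, 0.650 and 0.555 in the control. That is 4.86-fold higher without overlap (log2 fold change 2.28, SE 0.22, adjusted p = 1.02e-07), from a low level. In the other experiments its log2 fold change was 0.20 in HFD, 0.28 in HA-TRIM15 and -0.081 in shFOXRED1, and none of these passed.

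The TSC complex, the brake on Rheb, was split in HFD and higher in shYY2. Of the 4 genes of TSC and Rheb, 2 were higher and 2 lower in HFD, 1 and 1 in HA-TRIM15, and 3 were higher in shYY2. After shFOXRED1 the edgeR and DESeq2 tests each called 0 of the 4, and 1, TSC2, had an unadjusted p under 0.05.

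TBC1D7, a subunit that stabilizes the TSC complex, was at 12.2, 11.0 and 12.7 CPM in HFD and 7.46, 7.07 and 6.19 in ND. This was the largest log2 fold change among the members in HFD, a 1.73-fold rise without overlap (log2 fold change 0.79, SE 0.090, adjusted p = 1.96e-06). In the same xenografts TSC1, the scaffold subunit, and TSC2, the GTPase-activating subunit, fell (-0.14 and -0.19), and RHEB rose (0.23). TSC1 lost its call there without ND library 3 (adjusted p = 0.0598).

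After shYY2, TSC1 was at 99.3, 104 and 98.9 CPM against 50.1, 50.02 and 50.7 (log2 fold change 1.00, SE 0.036, adjusted p = 6.99e-13). This was a 2.00-fold rise with no overlap, while TSC2 (0.29) and TBC1D7 (0.24) also rose and RHEB (-0.057) did not pass. The TBC1D7 call in shYY2 was lost without any 1 of 4 libraries (adjusted p up to 0.116), without a filter and in DESeq2. In HA-TRIM15 RHEB rose (0.15) and TSC2 fell (-0.15), and both calls were lost in part: RHEB without EV library 2 (adjusted p = 0.0811) and TSC2 with the GC correction (adjusted p = 0.302). After shFOXRED1 TSC2 had a log2 fold change of 0.13 (adjusted p = 0.0551, and 0.00730 with the replicate number as a block), but with the block and the GC correction together the value was -0.0085 (adjusted p = 0.851).

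The Rag GTPases work as heterodimers of RagA or RagB with RagC or RagD. Of the 4 genes, 2 were higher and 1 lower in HFD, 1 and 1 in shYY2, and 1 was higher in shFOXRED1. In HA-TRIM15 the edgeR and DESeq2 tests each called 0 of the 4, and 2 had an unadjusted p under 0.05.

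RRAGD was at 3.35, 1.98 and 2.00 CPM after shYY2 and 0.659, 0.295 and 0.403 in the control, from 55, 33 and 37 counts against 12, 5 and 8. This 5.28-fold rise was the largest of any member in any experiment (log2 fold change 2.40, SE 0.32, adjusted p = 4.45e-06), at a level that fails a filter of 10 counts in every library. In HFD RRAGD was at 2.02, 1.80 and 1.81 CPM against 1.01, 1.44 and 1.16 (log2 fold change 0.59, SE 0.18, adjusted p = 0.0128). Its HFD libraries were all higher, but the call was lost without ND library 1 (adjusted p = 0.0526) and in DESeq2.

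RRAGB was at 9.69, 8.79 and 9.29 CPM in HFD and 13.2, 12.2 and 12.7 in ND (log2 fold change -0.45, SE 0.077, adjusted p = 0.000146). In shFOXRED1 cells it was at 13.8, 12.3 and 13.6 CPM against 8.64, 8.56 and 10.1 (log2 fold change 0.54, SE 0.12, adjusted p = 0.00192). Thus it fell in HFD and rose in shFOXRED1, in each without overlap. RRAGA, which stands in for RRAGB in the heterodimer, rose in HFD (0.11) and fell in shYY2 (-0.51). RRAGC was not called in any experiment, and 22.9% of its exon length overlaps another gene on its strand. With the replicate block its adjusted p after shFOXRED1 was 0.0123 (log2 fold change 0.27).

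The 5 Ragulator subunits, which tether the Rags to the lysosomal membrane, did not move together. In HFD 2 were higher and 2 lower, in shYY2 2 and 2, whereas 3 were lower in HA-TRIM15 and 2 higher in shFOXRED1.

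LAMTOR2 was at 27.0, 21.8 and 21.2 CPM in HA-TRIM15 and 28.3, 29.8 and 29.6 in EV (log2 fold change -0.31, SE 0.077, adjusted p = 0.00992). After shFOXRED1 it was at 22.2, 18.6 and 18.4 CPM against 14.2, 16.2 and 15.4 (log2 fold change 0.37, SE 0.11, adjusted p = 0.01201). The groups did not overlap in either experiment, and the direction was opposite. The shFOXRED1 call was lost without the first library of either group (adjusted p up to 0.0775). LAMTOR2 also rose in shYY2 (0.42). LAMTOR1, the membrane anchor, fell in HFD (-0.40), HA-TRIM15 (-0.19) and shYY2 (-0.50) and rose in shFOXRED1 (0.25). LAMTOR4 rose in HFD (0.15) and shYY2 (0.64) and fell in HA-TRIM15 (-0.25).

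The folliculin complex stimulates the GTPase of RagC and RagD. Its 3 genes were split in HFD, with 1 higher and 2 lower, and all 3 rose in shYY2 by 0.25 to 0.33 on the log2 scale. FLCN was at 24.2, 20.4 and 21.4 CPM in HA-TRIM15 and 28.7, 26.5 and 26.3 in EV (log2 fold change -0.29, SE 0.070, adjusted p = 0.00760). All HA-TRIM15 libraries were lower. FLCN also fell in HFD (-0.29) and rose in shFOXRED1 (0.36). Its partner FNIP2 rose in HFD (0.23) while FNIP1 fell (-0.12).

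GATOR1, the GTPase-activating complex that turns off RagA and RagB, had 2 of its 3 genes lower in HFD, 1 lower in HA-TRIM15 and in shYY2, and 1 higher in shFOXRED1. NPRL3 fell in HFD, HA-TRIM15 and shYY2 (log2 fold change -0.35, -0.21 and -0.46). In HA-TRIM15 it was at 50.1, 42.3 and 45.3 CPM against 56.4, 52.5 and 51.5 (log2 fold change -0.21, SE 0.058, adjusted p = 0.0178). The groups did not overlap, but the call was lost without HA-TRIM15 library 2 or EV library 1 (adjusted p up to 0.0918) and with the GC correction (adjusted p = 0.148). DEPDC5 fell in HFD (-0.21) and rose in shFOXRED1 (0.28). These calls were lost in DESeq2 and without any 1 of 3 libraries in HFD (adjusted p up to 0.1897) or of 5 in shFOXRED1 (up to 0.164). NPRL2 was not called in any experiment.

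GATOR2 opposes GATOR1. Of its 5 genes, 1 was higher and 2 were lower in HFD, 1 and 1 in HA-TRIM15, 2 and 3 in shYY2, and 1 and 1 in shFOXRED1. SEH1L, which also belongs to the nuclear pore, was at 47.8, 49.3 and 46.4 CPM in HFD and 33.5, 31.9 and 34.0 in ND. It was 1.44-fold higher without overlap (log2 fold change 0.53, SE 0.047, adjusted p = 9.56e-08), whereas WDR24 and WDR59 fell in the same xenografts (-0.35 and -0.29).

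WDR24 was at 12.5, 9.62 and 11.6 CPM in HA-TRIM15 and 14.6, 13.8 and 13.5 in EV (log2 fold change -0.31, SE 0.093, adjusted p = 0.0291). No library overlapped, yet the call was lost without HA-TRIM15 library 2 or any 1 EV library (adjusted p up to 0.135), in DESeq2 and with the GC correction (adjusted p = 0.1501). A gene on the other strand covers 35.69% of its exon length. MIOS was at 32.8, 30.8 and 36.5 CPM after shFOXRED1 and 50.01, 47.2 and 51.6 in the control (log2 fold change -0.57, SE 0.079, adjusted p = 2.03e-05). The shFOXRED1 libraries were all lower, and MIOS fell in shYY2 too (-0.63). In shYY2, SEH1L (-0.44) and SEC13 (-0.57) fell while WDR59 (0.73) and WDR24 (0.35) rose.

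KPTN, a subunit of the KICSTOR complex that holds GATOR1 at the lysosome, fell in shYY2 and rose in shFOXRED1. It was at 2.50, 3.66 and 3.08 CPM after shYY2 and 6.42, 5.20 and 6.05 in the control, a fall without overlap (log2 fold change -0.94, SE 0.15, adjusted p = 3.66e-05). After shFOXRED1 it was at 7.27, 7.90 and 6.43 CPM against 3.41, 3.91 and 3.67, a 1.97-fold rise without overlap (log2 fold change 0.98, SE 0.16, adjusted p = 0.000158). In HFD it was at 3.73, 3.22 and 3.67 CPM against 4.57, 4.86 and 4.79, again lower in every treated library (log2 fold change -0.41, SE 0.11, adjusted p = 0.00597). In HA-TRIM15 its log2 fold change of -0.13 did not pass (adjusted p = 0.491).

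Beside KPTN, the list holds the arginine sensors SLC38A9, a lysosomal transporter that signals to the Rags, and CASTOR1, a cytosolic protein that holds back GATOR2. SLC38A9 fell in HFD (-0.19) and shYY2 (-0.50) and rose in HA-TRIM15 (0.15) and shFOXRED1 (0.30). The HA-TRIM15 call was lost without any 1 of 5 libraries (adjusted p up to 0.147), with the block and in DESeq2, the HFD call without any 1 of 3 and the shFOXRED1 call without any 1 of 2. CASTOR1 rose in shYY2 (1.52) at a mean under 1 CPM, and 45.96% of its exon length overlaps another gene on its strand.

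Of the 5 PI3K and AKT genes, the growth factor arm of the pathway, 1 was higher and 1 lower in HFD, 2 and 1 in HA-TRIM15, 2 and 1 in shYY2, and 2 were lower in shFOXRED1. PIK3CA, the alpha catalytic subunit of PI3K, was at 71.0, 72.6 and 76.5 CPM in HA-TRIM15 and 66.0, 63.2 and 60.8 in EV (log2 fold change 0.21, SE 0.045, adjusted p = 0.00357). All HA-TRIM15 libraries were higher, and with the GC correction the adjusted p was 0.0519. A gene on the opposite strand overlaps 35.84% of its exon length. PIK3CA also rose in HFD (0.30) and shYY2 (0.45).

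AKT1, the kinase that phosphorylates TSC2, was at 116, 109.5 and 91.1 CPM after shFOXRED1 and 142, 138 and 137 in the control (log2 fold change -0.39, SE 0.074, adjusted p = 0.000447). All treated libraries were lower. The log2 fold change of AKT1 was 0.095 in HFD, -0.091 in HA-TRIM15 and -0.067 in shYY2, and none of these passed. With the GC correction AKT1 passed in HFD (log2 fold change 0.13, adjusted p = 0.00394) and in shYY2 (-0.24, adjusted p = 8.97e-07), and with the replicate block its adjusted p in shYY2 was 0.0484. AKT2 fell in HFD (-0.15) and HA-TRIM15 (-0.19) and rose in shYY2 (0.096).

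Of the 6 targets, 3 were higher and 2 lower in HFD, 1 and 1 in HA-TRIM15, 2 and 3 in shYY2, and 1 and 3 in shFOXRED1. EIF4EBP2, which encodes a translation repressor that mTORC1 inactivates, was at 164, 171 and 170.0 CPM in HFD and 124, 122 and 126 in ND (log2 fold change 0.44, SE 0.035, adjusted p = 3.04e-08). After shYY2 it was at 339, 328 and 341 CPM against 159, 156 and 159 (log2 fold change 1.09, SE 0.029, adjusted p = 2.79e-14). In shFOXRED1 cells it was at 160.0, 161 and 166 CPM against 226, 217 and 219.6 (log2 fold change -0.44, SE 0.051, adjusted p = 3.06e-06). It was thus higher in HFD and shYY2 and lower in shFOXRED1, in each case without overlap. Its paralog EIF4EBP1 fell in HA-TRIM15 (-0.14), and after shFOXRED1 its adjusted p was 0.115 without and 0.00504 with the replicate block (log2 fold change -0.20).

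EIF4E, the cap-binding protein that these repressors hold, was at 34.1, 39.0 and 39.8 CPM after shFOXRED1 and 51.5, 55.2 and 53.3 in the control (log2 fold change -0.50, SE 0.076, adjusted p = 5.56e-05). The groups did not overlap. EIF4E also fell in shYY2 (-0.73) and rose in HFD (0.19). ULK1, the kinase that starts autophagy, was at 164, 162 and 163 CPM after shYY2 and 61.8, 66.7 and 60.2 in the control, 2.60-fold higher without overlap (log2 fold change 1.38, SE 0.037, adjusted p = 2.49e-14). It also rose in shFOXRED1 (0.20) and fell in HFD (-0.14). Of the S6 kinases, RPS6KB1 rose in HFD (0.15) and HA-TRIM15 (0.18) and fell in shYY2 (-0.11) and shFOXRED1 (-0.19), and all 4 calls were lost with the GC correction. RPS6KB2 fell in HFD (-0.23) and shYY2 (-0.52).

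DDIT4, also called REDD1, is a stress-induced inhibitor that acts through the TSC complex, and it was called in all 4 experiments. It was at 291, 293 and 307 CPM in HFD and 173, 181 and 192 in ND, 1.63-fold higher (log2 fold change 0.71, SE 0.041, adjusted p = 6.18e-10). In HA-TRIM15 it was at 196, 189.5 and 175 CPM against 154, 147 and 150.4 in EV (log2 fold change 0.31, SE 0.041, adjusted p = 9.49e-05). In both experiments the treated libraries were all higher. After shFOXRED1 it was at 216, 206 and 168 CPM against 275, 278 and 261, a fall without overlap (log2 fold change -0.46, SE 0.073, adjusted p = 8.09e-05). DDIT4 rose in shYY2 (0.36). With the GC correction its log2 fold change was 0.76, 0.40, -0.58 and 0.25 in these 4 experiments in the order given. A gene on the other strand overlaps 41.16% of its exon length, and how the counting treated strand is not settled by the sources used here.

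Of the other 3 genes of stress and energy sensing, STK11, the kinase LKB1 that activates AMPK, rose in shYY2 (0.38) and shFOXRED1 (0.32). PRKAA1, the widely expressed catalytic subunit of AMPK, rose in HA-TRIM15 (0.15) and fell in shYY2 (-0.17). The HA-TRIM15 call of PRKAA1 was kept in 1 of the 6 fits that left out a library (adjusted p up to 0.0783). Both of these calls were lost with the GC correction. The paralog PRKAA2 was tested in shFOXRED1 alone, with a log2 fold change of -0.36 (adjusted p = 0.494).

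The 2 knockdowns differed in 30 of 49 members, where 54.4% of all 17146 genes tested differed. These were tests of the difference between the shYY2 and the shFOXRED1 effect, in 1 fit over both experiments, and 15 members were higher and 15 lower in shYY2 relative to shFOXRED1. The difference was -1.92 for KPTN on the log2 scale (SE 0.22, adjusted p = 1.88e-07), 2.36 for DEPTOR (SE 0.28, adjusted p = 2.27e-07) and 2.11 for RRAGD (SE 0.36, adjusted p = 3.26e-05). It was 1.53 for EIF4EBP2, 1.18 for ULK1, 1.05 for RICTOR, 0.98 for TSC1, -0.81 for MTOR and -0.71 for RPTOR, each past the threshold. For EIF4E (difference -0.22, SE 0.095, adjusted p = 0.0535) and MIOS (difference -0.054, SE 0.085, adjusted p = 0.614), which fell in both, no difference was called. The 2 experiments had separate controls and no common library. The controls themselves differed in the level of some of these genes, here scaled to exon length and library size. In the shYY2 and the shFOXRED1 control the means were 0.29 and 4.10 for DEPTOR, 0.089 and 0.94 for RRAGD, and 8.27 and 23.1 for ULK1. They were closer for MTOR (7.99 and 7.64) and RICTOR (8.62 and 9.25). The part of these starting levels in the differences was not tested.

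**Figure D4:**
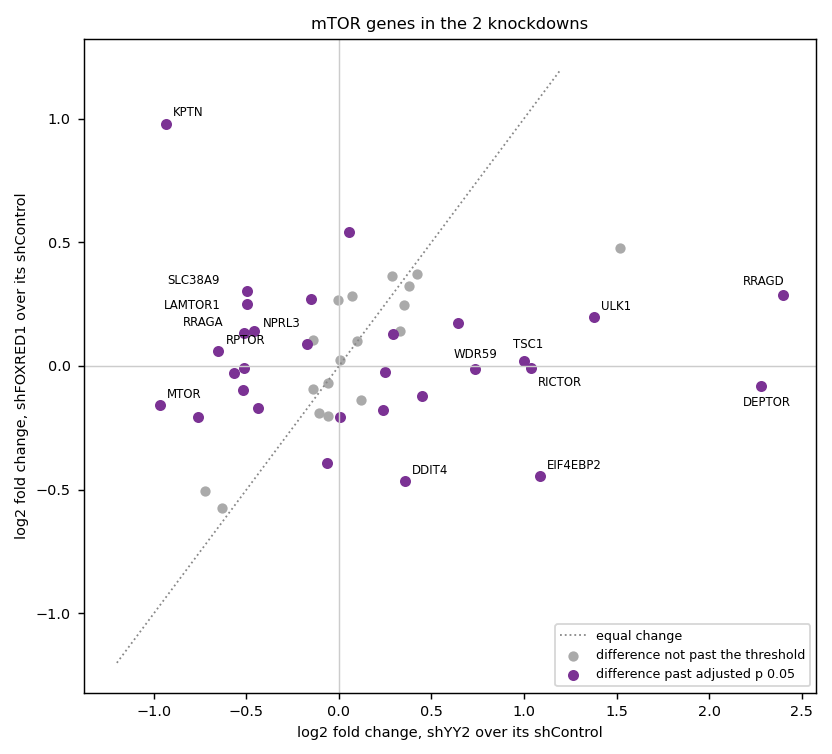
Log2 fold change of each member after shYY2 (horizontal axis) and after shFOXRED1 (vertical axis), with a dotted line of equal change and purple points for members whose 2 changes differed past an adjusted p of 0.05. KPTN lies far above the line, at -0.94 and 0.98, and RRAGD, DEPTOR, ULK1, RICTOR and TSC1 lie to the right of it.

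The HFD and HA-TRIM15 effects differed in 21 of 48 members, beside 35.2% of all 17160 genes tested. Relative to HA-TRIM15, 13 members were higher in HFD and 8 were lower. The difference was 1.00 for TBC1D7 (SE 0.12, adjusted p = 2.04e-06), 0.63 for SEH1L (SE 0.060, adjusted p = 6.86e-08) and -0.51 for RRAGB (SE 0.13, adjusted p = 0.00538). DDIT4 rose more in HFD (difference 0.42, adjusted p = 1.13e-05), and RPTOR fell more (difference -0.29, adjusted p = 0.00688). For RICTOR the difference was 0.0036 with an SE of 0.062 (adjusted p = 0.976), and for MTOR it was 0.14 with an SE of 0.063 (adjusted p = 0.0882).

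Between pairs of experiments, the share of members with the same direction varied with the pair, as it did for all genes. Of the 15 members called in both HFD and HA-TRIM15, 13 had the same direction (86.7%, beside 69.0% of all genes called in both). Of the 13 called in both HFD and shFOXRED1, 1 did (7.69%, beside 26.2%), and of the 9 called in both HA-TRIM15 and shFOXRED1, 1 did (11.1%, beside 40.8%). The shares were 16 of 29 for HFD and shYY2 (55.2%, beside 45.4%), 7 of 17 for HA-TRIM15 and shYY2 (41.2%, beside 52.2%) and 9 of 15 for shYY2 and shFOXRED1 (60%, beside 70.5%). These shares are descriptions, and members of a complex or of like GC content are not independent of each other.

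Around the members, 85 other genes of the pathway were counted by role, of which 80 were tested in each experiment. In HFD 31 were higher and 19 lower, in HA-TRIM15 23 and 6, in shYY2 36 and 31, and in shFOXRED1 20 and 25. That is 62.5%, 36.25%, 83.75% and 56.25% called in the same order, beside 49.5%, 22.1%, 75% and 36.6% of all genes tested. ATF4 is an amino acid stress factor that mTORC1 also raises. Of 12 genes counted as its output, ATF4 itself among them, 5 were higher and 1 lower in HFD and 9 were higher in HA-TRIM15. The counts were 2 and 9 in shYY2, and 2 and 8 in shFOXRED1. The shares called were 50%, 75%, 91.7% and 83.3%, of which the HFD share was near that of all genes. Of 17 lysosomal and autophagy genes driven by TFEB, which mTORC1 keeps out of the nucleus, 16 were tested. In HFD 6 were higher and 8 lower, in HA-TRIM15 2 and 2, in shYY2 9 and 5, and in shFOXRED1 6 and 5. The shares called were 87.5%, 25%, 87.5% and 68.75%, of which the HA-TRIM15 share was near that of all genes. These lists were counted in the edgeR test alone, without the GC correction and without leaving out libraries.

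The largest called changes in this wider list were in PIK3CG (1.37) and PRKAG2 (0.74) in HFD, and PIK3IP1 (1.00) and EIF4A1 (-0.84) in HA-TRIM15. After shYY2 they were in PIK3CG (-3.72) and SESN3 (3.57). After shFOXRED1, ASNS, which encodes asparagine synthetase, fell (-1.04). Other genes on the same strand share 48.59% of the exon length of EIF4A1 and 44.56% of that of ASNS. SLC3A2, the heavy chain of the leucine transporter, rose in HFD (0.13), HA-TRIM15 (0.35) and shFOXRED1 (0.31) and fell in shYY2 (-1.40). Its light chain SLC7A5 fell in shYY2 (-1.73) and was not called elsewhere. The RNA of MYC, the c-MYC gene, rose in HFD (0.32) and fell in shYY2 (-0.30) and shFOXRED1 (-0.49). In HA-TRIM15 its log2 fold change of 0.034 did not pass. The level of c-MYC protein is not measured by these data. SESN2, a leucine sensor that binds GATOR2, rose in HA-TRIM15 (0.39) and fell in HFD (-0.30) and shYY2 (-0.51).

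Levels per length set these changes in scale. In FPKM, a level scaled to exon length and library size and computed here from the counts of the control groups, DDIT4 was the most abundant member in each experiment, with group means from 73.1 to 132. EIF4EBP1 had means from 52.2 to 59.6. MTOR (5.60 to 7.99), RPTOR (4.78 to 6.82) and RICTOR (7.17 to 9.25) had overlapping ranges of control means. Low means were found for PRKAA2 (0.0298 to 0.118), CASTOR1 (0.0913 to 0.350), RRAGD (0.0892 to 0.942) and DEPTOR (0.170 to 4.10). DEPTOR and RRAGD, with the largest changes after shYY2, were thus among the 4 least abundant members in the control of that experiment.

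Promoters were searched because YY2 is a DNA-binding factor that recognizes nearly the same letters as its relative YY1. RefSeq promoters (build GRCh38.p14, from 250 bases before to 50 after the gene start) were at hand for 42 of the 49 members. The letters AAGATGGC, on either strand, occurred in 6 of these 42 (14.3%), beside 3.52% of 27305 genes and 4.66% of 15843 protein-coding genes. Each window is given on the strand of its gene, 5′ to 3′, with the motif in capitals (GCCATCTT where it lies on the other strand), for all 6 matched members.
EIF4E: cagatcgatctAAGATGGCgactgtcgaac
PRKAA1: gttcctggagaAAGATGGCgacagccgaga
TSC1: gctgtacgtccAAGATGGCggcgccctgta
RPS6KB2: ttgcgacggaaGCCATCTTtgttccccacc
STK11: gggaggtaaacAAGATGGCggcggcgtgtc
KPTN: gcgacctggccGCCATCTTgggagagggca

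The windows lie at chr4:98929097-98929126 (EIF4E, minus strand), chr5:40798147-40798176 (PRKAA1, minus), chr9:132944590-132944619 (TSC1, minus), chr11:67428367-67428396 (RPS6KB2, plus), chr19:1205776-1205805 (STK11, plus) and chr19:47484294-47484323 (KPTN, minus). After shYY2 the RNA of EIF4E, PRKAA1, RPS6KB2 and KPTN fell and that of TSC1 and STK11 rose. Of the 42, the motif was in 4 of 16 members that fell after shYY2, 2 of 17 that rose and 0 of 8 that were tested and not called. A match is a run of letters and not a binding site, and its absence from this window says nothing about the factor.

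A second search concerned the E-box TCACGTG, the core of the element that TFEB recognizes. This E-box is also MYC-like, so a match does not tell these factors apart. The E-box occurred on either strand in 7 of 42 members (16.7%), beside 4.49% of all genes and 5.83% of protein-coding genes. These were RRAGB, RRAGC, LAMTOR1, LAMTOR4, FNIP1, TSC2 and EIF4E, of which 5 belong to the Rag, Ragulator and folliculin groups. The window of LAMTOR4 is at chr7:100148893-100148922 (plus strand) and that of LAMTOR1 at chr11:72103445-72103474 (minus strand), shown because these Ragulator genes moved in opposite directions in HFD and in shYY2.
LAMTOR4: gcggctgcaagCACGTGAccggggcctgaa
LAMTOR1: ctttccccgcaTCACGTGcttgcgtgtacg

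Capitals mark the E-box, which is on the other strand in LAMTOR4. The ATF4-like letters TGATGNAA were found in 1 of 42 members (2.38%), beside 4.46% of all genes, and that match in TSC2 overlaps its E-box.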

How the data were processed

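The authors deposited 4 tables of read counts per Ensembl gene, not normalized, 1 per experiment. The submitters' processing notes name hg38 and mm10, while the aligner, the counter and the handling of mouse reads are not given in the sources used here. Nothing says that the libraries of a group came from separate cultures or animals, so p-values measure the spread between these samples, which may be technical. No pair of libraries looked like a copy or a second reading of the same library: the chi-square per gene was 1.47 to 8.09 over 24 pairs. The check cannot tell separate cultures or animals from separate libraries of the same RNA. The depth of 14299807 to 45994561 counts per library limits the low members (DEPTOR, RRAGD, CASTOR1 and PRKAA2).

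Symbols came from a table that named 99.8% of the identifiers. Counts were filtered (at least 10 counts in a group's worth of libraries at the median depth, and 15 in all), scaled by TMM and tested in each experiment with edgeR 4.0.16 (limma 3.58.1, R 4.3.3) by its quasi-likelihood test, and p was adjusted by Benjamini-Hochberg across the whole table. CPM values use the scaled library sizes. Differences between experiments were contrasts in a fit over both experiments. Alternatives were DESeq2 1.42.0 (size factors, and its Wald test), no filter, 10 counts in every library, a fold change of at least 1.2, the replicate number as a block, each library left out and, added after seeing the data, a lowess trend on GC content removed from each library. The fits were also run on simulated counts with the same dispersion for every gene and with no GC trend or replicate effect. That run therefore cannot tell how well the GC correction or the block deals with such effects.

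The members and lists were chosen with earlier results of these data known. Values per library are given for the 8 called members with the largest absolute log2 fold change in each experiment, provided that their groups did not overlap and their mean reached 1 CPM, and for MTOR, RPTOR and RICTOR always. In the wider list of 85 genes, the 2 with the largest called change in each experiment and SLC3A2, SLC7A5, MYC and SESN2 are named, except for 1 gene that is not reported here. Same-numbered libraries were correlated in their deviations from the group means over genes with a mean of at least 100 counts. In shFOXRED1 r was 0.18, 0.12 and 0.34. The highest r with a library of another number was 0.18 for numbers 1 and 2 and -0.15 for number 3. A pairing there thus rested on number 3, and the block was used only as an alternative. In the other experiments at least 1 same-numbered pair was at or below 0.1. Some pairs there were above the highest r with another number. These were number 3 in HFD (0.064 beside -0.017), number 2 in HA-TRIM15 (0.13 beside -0.026) and number 3 in shYY2 (0.16 beside 0.048). The labels give no reason for a pairing.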

Additional observations from a re-analysis of the deposited data

How the results depend on the processing

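The numbers of higher and lower members stayed within 1.5 times their value under DESeq2 size factors, without a filter, with at least 10 counts in every library and with the replicate block. They moved with a fold change of at least 1.2, to 7 higher and 8 lower in HFD, 1 and 3 in HA-TRIM15 and, for lower members, 5 in shFOXRED1. In HA-TRIM15 the lower members also moved to 7 in the DESeq2 Wald test and the higher members to 4 with the GC correction. Leaving out each library gave 12 to 16 higher and 14 to 17 lower members in HFD, 5 to 12 and 5 to 17 in HA-TRIM15, 18 to 19 and 17 to 19 in shYY2, and 6 to 13 and 6 to 11 in shFOXRED1. Over all genes the same fits called 22.4% to 24.7% higher and 19.3% to 21.4% lower in HFD, 7.78% to 16.2% and 4.91% to 15.6% in HA-TRIM15, 34.6% to 35.7% and 35.8% to 37.1% in shYY2, and 12.6% to 19.6% and 15.6% to 22.2% in shFOXRED1. The members that differed between shYY2 and shFOXRED1 were then 28 to 34, and between HFD and HA-TRIM15 15 to 22. The replicate number as a block gave 14 higher and 19 lower members in HFD, 8 and 13 in HA-TRIM15, 20 and 20 in shYY2 and 16 and 11 in shFOXRED1, with differences in 34 and 20, and over all genes it called 48.6%, 22.8%, 75.8% and 43.2%. In HFD, HA-TRIM15 and shYY2 the labels show nothing but the number that same-numbered libraries share.

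Signs changed only among uncalled members, apart from AKT2 and RPS6KB1 in shYY2, which were called, and lost that call, under the GC correction, and RICTOR in shFOXRED1, which passed with that correction and the block. With at least 10 counts in every library, the log2 fold change was -0.0073 for AKT1S1, -0.0076 for STK11 in HFD, and 0.020 for RRAGC in shYY2, and 0.0037 for RICTOR, 0.0018 for MLST8 in shFOXRED1. Without a filter, the log2 fold change was -0.0082 for MAPKAP1, -0.011 for LAMTOR5 in HA-TRIM15, and -0.0060 for LAMTOR5, -0.0054 for PIK3CB in shYY2. With the replicate block, the log2 fold change was 5.77e-05 for FNIP2 in HA-TRIM15. With DESeq2 size factors, the log2 fold change was 0.0081 for RRAGC in shYY2. In the DESeq2 Wald test, the log2 fold change was 0.0079 for RRAGC in shYY2. With the GC correction, the log2 fold change was -0.0019 for MIOS in HFD, and 0.017 for MTOR, -0.014 for LAMTOR5, 0.027 for AKT1, 0.016 for STK11 in HA-TRIM15, and 0.072 for RRAGC, -0.013 for AKT2, 0.028 for RPS6KB1 in shYY2. With the GC correction and the replicate block, the log2 fold change was -0.075 for RPTOR, 0.10 for RICTOR, -0.0085 for TSC2, 0.065 for FNIP2, -0.010 for NPRL3, 0.00062 for WDR59, -0.010 for AKT2 in shFOXRED1. Without a library, it ranged from -0.016 to 0.021 for AKT1S1, -0.025 to 0.099 for EIF4EBP1, -0.012 to 0.091 for MIOS, -0.034 to 0.075 for STK11 in HFD. It ranged from -0.035 to 0.026 for FNIP2, -0.027 to 0.033 for LAMTOR5, -0.012 to 0.015 for MAPKAP1, -0.036 to 0.023 for MTOR, -0.027 to 0.15 for RRAGB, -0.056 to 0.078 for ULK1 in HA-TRIM15. It ranged from -0.011 to 0.021 for LAMTOR5, -0.014 to 0.016 for PIK3CB, -0.00071 to 0.12 for RRAGB, -0.048 to 0.018 for RRAGC in shYY2. It ranged from -0.20 to 0.091 for DEPTOR, -0.051 to 0.026 for FNIP2, -0.042 to 0.077 for LAMTOR5, -0.053 to 0.044 for MLST8, -0.12 to 0.072 for RICTOR, -0.0086 to 0.12 for RPTOR, -0.13 to 0.069 for SEC13, -0.012 to 0.071 for TSC1, -0.043 to 0.010 for WDR59 in shFOXRED1. The low totals of DEPTOR, RRAGD, CASTOR1 and PRKAA2 limit what can be said of them, and the cause of these changes was not tested.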
